A study of Mus musculus with 4 samples.

Results

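The genes described here are the 8 somatostatin and growth hormone axis genes Sst, Cort, Sstr1, Sstr2, Sstr3, Sstr4, Ghrh and Ghr, chosen by symbol from the 33696 genes listed in each of 4 single-nucleus RNA libraries of mouse hypothalamus. The libraries, titled SPF (specific pathogen free) and Baseline, came from wild-type C57BL/6J mice with an osmotic minipump in the peritoneal cavity for 2 weeks. The groups were libraries ImP 3 and ImP 4, from mice that received 350 µg of imidazole propionate (ImP) per day, and libraries Vehicle 1 and Vehicle 2, from mice that received the vehicle, sterile water with 1% DMSO. Imidazole propionate is made from histidine by intestinal microbes, and the study set it against vehicle in the hypothalamus. The labels give no age, no sex and no number of mice per library. A p-value between ImP and vehicle therefore measures the spread between libraries, which may be technical. Comparisons between sets of nuclei take library as a block. Their p-values set the difference within a library against its spread from library to library. The count fits estimate that spread with information shared across genes. A very small p-value therefore does not rest on 4 values of 1 gene alone and should not be read as such.

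Somatostatin, encoded by Sst, is released by periventricular hypothalamic neurons and holds back the secretion of growth hormone from the pituitary. Growth hormone-releasing hormone, encoded by Ghrh, comes from the arcuate nucleus and stimulates that secretion. Cort encodes cortistatin, a relative of somatostatin that binds the same receptors. Those receptors, encoded by the Sstr genes, are inhibitory G protein-coupled receptors. Ghr encodes the growth hormone receptor, through which the circulating hormone feeds back on the brain and signals by JAK2 and STAT5.

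The 4 libraries held 48060194 to 51945297 unique molecular identifiers (UMIs, 1 for each captured RNA molecule), and 10917 to 15725 nuclei each passed the filters, with a median of 2820 to 3757 UMIs per nucleus. Neurons, 7738 to 10253 per library, and glial and vascular classes were gated by marker genes, none of which was one of the 8. Agrp, which marks the arcuate nucleus, stood at 65.0 and 71.2 CPM in neurons of ImP 3 and ImP 4, against 64.3 and 65.4 CPM in Vehicle 1 and Vehicle 2, where CPM is the usual scaling of a gene's UMIs by the total of its nuclei. Tanycytes of the third ventricle were less even. They were 0.291% of nuclei in ImP 3 and 0.852% in ImP 4, against 0.266% in Vehicle 1 and 0.553% in Vehicle 2. Whether the libraries sampled the region evenly was not tested. One library stood apart in pituitary RNA. Gh, the growth hormone gene of the pituitary, was at 27.7 CPM over all nuclei in ImP 3 and 2066 CPM in ImP 4, against 26.2 CPM in Vehicle 1 and 6.83 CPM in Vehicle 2. Nuclei gated as pituitary cells numbered 3 in ImP 3 and 289 in ImP 4, against 2 in Vehicle 1 and 0 in Vehicle 2. Any 2 libraries shared 39 to 76 barcodes, at most 0.524% of the smaller one.

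All 8 genes were detected in every library, at very different depths. Sst gave 2720 and 4468 UMIs in ImP 3 and ImP 4, against 1831 and 2484 in Vehicle 1 and Vehicle 2. Ghr gave 9904 and 12660 UMIs in the ImP libraries, against 9530 and 10327 in the vehicle libraries. Cort gave only 7 and 5 UMIs, against 9 and 11, and Sstr4 gave 11 and 9, against 5 and 8. No nucleus in any library held more than 1 Cort UMI among neurons, so no cortistatin-producing nucleus could be called at this depth. The upper 95% limit on the share of neurons with 3 or more Cort UMIs was 0.0366% in ImP 3 and 0.0360% in ImP 4, against 0.0477% in Vehicle 1 and 0.0404% in Vehicle 2, counting error only. Cort and Sstr4 did not pass the filter on low counts in any comparison of treatments or classes and are given as counts alone.

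The promoters of the peptide gene and of its most abundant receptor gene carry the same element. The cAMP response element TGACGTCA, a palindrome known from the somatostatin promoter as the binding site of CREB, was searched in the 250 bases before each annotated start (RefSeq, build GRCm38.p6), where 508 of 32851 windows, or 1.55%, held it. Windows were found for 7 of the 8 genes, all but Sstr1, and Ghr, Ghrh and Sstr3 had more than a single window each. Those of Sst and Sstr2 held the element, which begins 48 bases before the start of Sst and 58 bases before that of Sstr2. The match in Sst was known before the search. The sequences that end at the start are shown 5′ to 3′ with the element in capitals, at chr16:23890845-23890964 on the minus strand for Sst and chr11:113619207-113619326 on the plus strand for Sstr2.
Sst: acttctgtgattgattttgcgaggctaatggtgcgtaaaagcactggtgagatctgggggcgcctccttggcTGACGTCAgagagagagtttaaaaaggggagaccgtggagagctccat
Sstr2: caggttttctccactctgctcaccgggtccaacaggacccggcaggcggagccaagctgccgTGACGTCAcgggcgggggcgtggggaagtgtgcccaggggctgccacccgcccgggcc
A match describes these letters only, and no binding or chromatin data were at hand.

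Sst RNA was found in every class of nuclei, and most of it lay outside the nuclei that held several molecules. In neurons Sst stood at 50.2 CPM in ImP 3 and 76.0 CPM in ImP 4, against 38.3 CPM in Vehicle 1 and 48.3 CPM in Vehicle 2. In oligodendrocytes, the myelin-forming cells, it stood higher on this scale, at 95.3 and 158 CPM in the ImP libraries, against 51.1 and 78.9 CPM in the vehicle libraries. Glial nuclei held far fewer UMIs in all, with medians of 1294 and 1346 in oligodendrocytes of ImP 3 and ImP 4, against 1430 and 1292 in Vehicle 1 and Vehicle 2. Neurons had medians of 3614 and 3589 UMIs in the ImP libraries, against 4677 and 3991 in the vehicle libraries.

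Counted per nucleus, oligodendrocytes had less Sst than neurons without several Sst molecules in each library, and came nearest to them in ImP 4. Neurons with 0 to 2 Sst UMIs averaged 0.156 and 0.234 Sst UMIs in ImP 3 and ImP 4, against 0.120 and 0.146 in Vehicle 1 and Vehicle 2. Oligodendrocytes, with no limit on their Sst UMIs, averaged 0.136 and 0.232 in the ImP libraries, against 0.0809 and 0.112 in the vehicle libraries. At least 1 Sst UMI was found in 14.9% and 21.7% of neurons in ImP 3 and ImP 4, against 11.7% and 13.8% in Vehicle 1 and Vehicle 2. In oligodendrocytes the share was 12.3% and 20.6% in the ImP libraries, against 7.73% and 10.3% in the vehicle libraries. After each nucleus was thinned to 2000 UMIs, neurons reached 8.16% and 12.5% in the ImP libraries, against 6.10% and 7.89% in the vehicle libraries, with 446 to 1215 shallower neurons per library left out. The 135 to 226 oligodendrocytes per library that could be thinned reached 8.07% and 20.1% in the ImP libraries, against 9.73% and 9.63% in the vehicle libraries. A single Sst UMI was therefore not taken to mark a neuron as a producer. Whether such molecules were background or low expression was not tested.

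**Figure D1:**
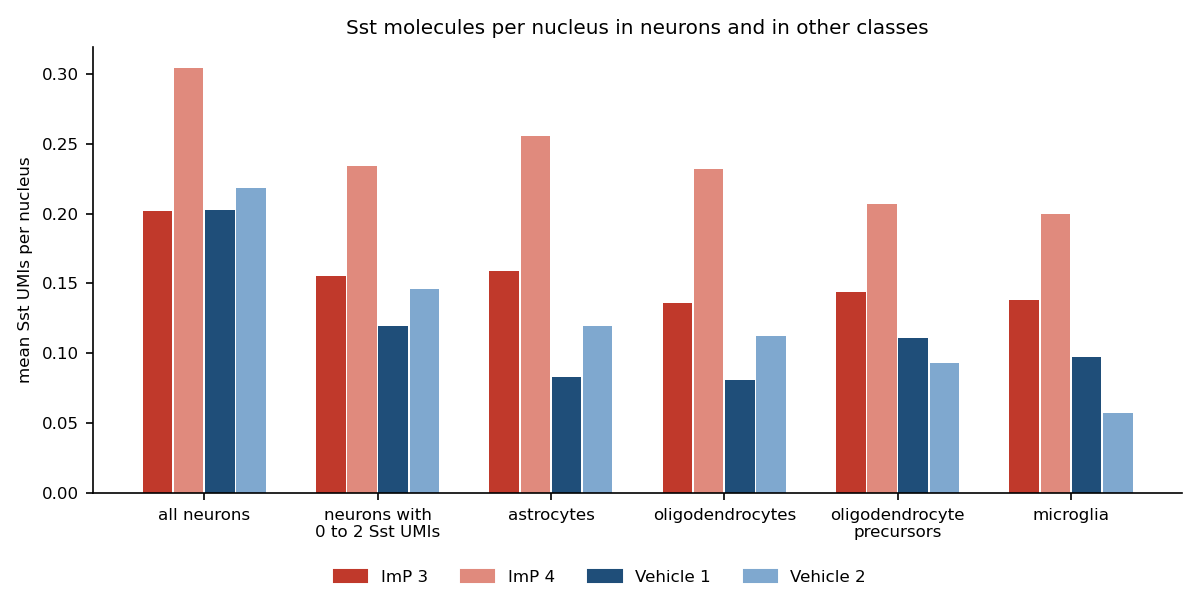
Mean number of Sst UMIs per nucleus (y axis) in 6 sets of nuclei (x axis), 1 bar per library, with ImP libraries in red and vehicle libraries in blue. ImP 4 is the highest bar in each set, at 0.304 in all neurons and 0.232 in oligodendrocytes.

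Nuclei with 3 or more Sst UMIs were taken as Sst producers. They numbered 99 in ImP 3 and 112 in ImP 4, against 99 in Vehicle 1 and 94 in Vehicle 2. Among oligodendrocytes 4 nuclei of ImP 4 and 0 of the other 3 libraries reached that number of Sst UMIs, and 0 in any library reached 5. The producers were 0.982% of neurons in ImP 3 (95% interval 0.799 to 1.19, exact Clopper-Pearson) and 1.09% in ImP 4 (0.900 to 1.31), against 1.28% in Vehicle 1 (1.04 to 1.56) and 1.03% in Vehicle 2 (0.833 to 1.26). The groups overlapped, with a difference of -0.118 percentage points between the ImP and vehicle means (exact permutation test over libraries, two-sided, p = 0.667). The smallest p that 2 against 2 libraries allow is 0.333.

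The groups separated only for nuclei rich in Sst, among the 2, 3 and 5 UMI thresholds. Neurons with 5 or more Sst UMIs were 0.307% in ImP 3 and 0.439% in ImP 4, against 0.724% in Vehicle 1 and 0.548% in Vehicle 2, and the groups did not overlap (exact permutation p = 0.333, the smallest possible). Producers held 23.8% and 23.9% of the neuronal Sst UMIs in ImP 3 and ImP 4, against 41.7% and 33.8% in Vehicle 1 and Vehicle 2. The neurons with 0 to 2 Sst UMIs, given above, had more Sst per nucleus in both ImP libraries. The median producer held 4 Sst UMIs in each ImP library and 5 in each vehicle library. Neurons of the ImP libraries were also shallower, and after thinning to 2000 UMIs the share with 5 or more Sst UMIs was 0.0677% and 0.209% in ImP 3 and ImP 4, against 0.274% and 0.277% in Vehicle 1 and Vehicle 2 (exact permutation p = 0.333).

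**Figure D2:**
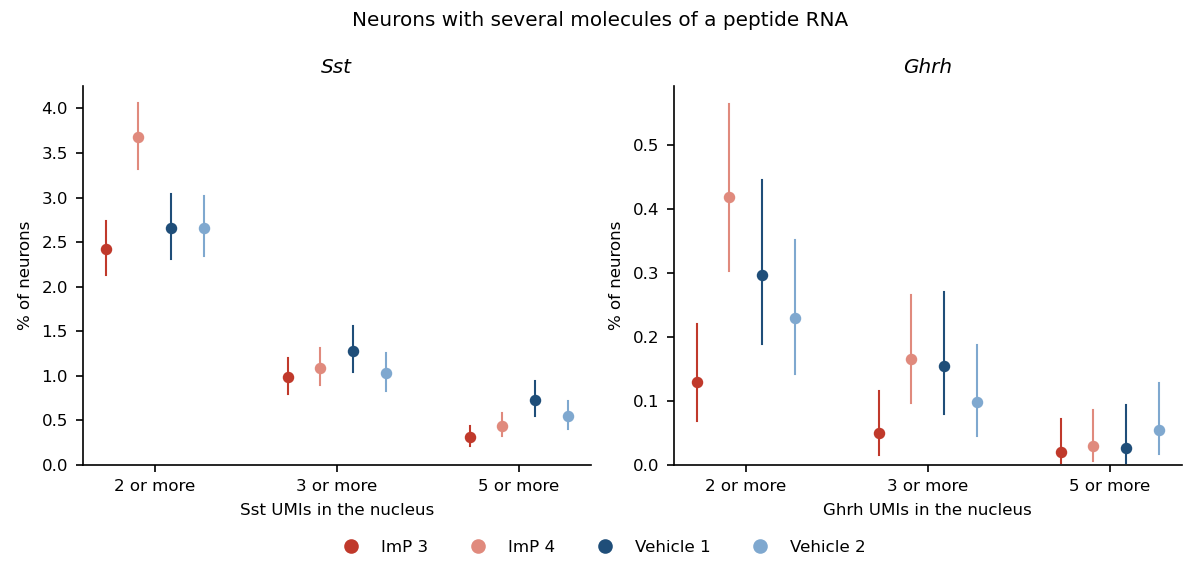
Share of neurons (y axis, %) with at least 2, 3 or 5 UMIs (x axis) of Sst, left, and Ghrh, right, 1 point per library with its exact 95% interval, ImP in red and vehicle in blue. At 5 or more Sst UMIs the ImP points, 0.307% and 0.439%, lie below the vehicle points, 0.724% and 0.548%, while at 2 or more ImP 4 is the highest, at 3.68%.

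Most Sst producers had no transmitter call. Those called GABAergic numbered 27 of 99 and 29 of 112 in ImP 3 and ImP 4, against 33 of 99 and 31 of 94 in Vehicle 1 and Vehicle 2. Those called glutamatergic numbered 4 and 8 in the ImP libraries, against 7 and 7 in the vehicle libraries. Among all neurons the calls were 1871 and 2167 GABAergic and 713 and 691 glutamatergic in ImP 3 and ImP 4, against 1873 and 2104 GABAergic and 822 and 737 glutamatergic in Vehicle 1 and Vehicle 2, and the difference in makeup was not tested. Over whole classes Sst was higher in GABAergic than in glutamatergic neurons, at 61.2 ± 17.3 CPM and 38.2 ± 18.2 CPM (SD, n = 4 libraries). The log2 fold was 0.67 with a standard error (SE) of 0.10 and an adjusted p of 8.0e-07 (edgeR's quasi-likelihood test with library as a block, Benjamini-Hochberg over all genes). In that comparison 7.18% of all genes passed the threshold of 0.05, 2.21% higher and 4.97% lower in GABAergic neurons. On the CPM scale both classes stood below oligodendrocytes (95.9 ± 45.4 CPM; GABAergic neurons over oligodendrocytes -0.63, SE 0.10, adjusted p = 1.9e-07). From high to low the order was astrocytes, oligodendrocytes, microglia, GABAergic neurons, oligodendrocyte precursors, tanycytes and glutamatergic neurons. No neighbours in it differed (edgeR adjusted p from 0.0552 to 0.878). Classes with fewer than 20 nuclei in some library were left out of this order and not tested. Sst averaged 139 CPM in ependymal cells (12 UMIs), 136 CPM in mural cells (17 UMIs) and 130 CPM in endothelial cells (11 UMIs). Pituitary cells averaged 104 CPM (71 UMIs) and fibroblasts 40.9 CPM (5 UMIs).

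Ghrh was sparse. In neurons it stood at 5.22 CPM in ImP 3 and 9.65 CPM in ImP 4, against 4.19 CPM in Vehicle 1 and 4.90 CPM in Vehicle 2. Neurons with 3 or more Ghrh UMIs, taken as Ghrh producers, numbered 5 and 17 in the ImP libraries, against 12 and 9 in the vehicle libraries, and no oligodendrocyte reached 3. They were 0.0496% and 0.166% of neurons, against 0.155% and 0.0986%, and the groups overlapped (exact permutation p = 1.00). No nucleus was a producer of both Sst and Ghrh. With 5 to 17 Ghrh producers per library, this cannot show whether the peptides exclude each other. GABAergic neurons had more Ghrh than glutamatergic neurons, 6.94 ± 2.64 CPM and 3.71 ± 1.82 CPM (SD, n = 4; log2 fold 0.88, SE 0.22, edgeR adjusted p = 0.00377). That call was lost when the deepest 10% of nuclei were left out, at a log2 fold of 0.78 and an adjusted p of 0.0630. Astrocytes stood at 9.40 ± 4.09 CPM and oligodendrocytes at 9.02 ± 3.27 CPM, and neither was told apart from GABAergic neurons (adjusted p = 0.164 and 0.0987). Tanycytes averaged 13.7 ± 12.2 CPM, on 11 UMIs in 4 libraries.

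Among the somatostatin receptor genes, Sstr2 gave the most UMIs and was the only one with enough for a test between classes. Sstr2, which encodes the receptor that is best known for blocking hormone release, stood at 9.36 CPM in neurons of ImP 3 and 11.3 CPM in ImP 4, against 10.4 CPM in Vehicle 1 and 11.4 CPM in Vehicle 2. By class it averaged 10.6 ± 2.1 CPM in GABAergic neurons, 7.97 ± 1.60 CPM in glutamatergic neurons, 5.23 ± 1.93 CPM in astrocytes and 3.89 ± 1.54 CPM in oligodendrocytes (SD, n = 4). GABAergic neurons exceeded oligodendrocytes (log2 fold 1.43, SE 0.26, edgeR adjusted p = 2.8e-06) and astrocytes (1.04, SE 0.28, adjusted p = 9.4e-04). The 2 neuron classes were not told apart (0.36, SE 0.16, adjusted p = 0.254). Of the 21 pairs of classes, 5 passed for Sstr2, where 7.18% to 73% of all genes passed in a pair.

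Sstr1 and Sstr3 gave far fewer molecules. Sstr1 gave 69 and 93 UMIs in neurons of ImP 3 and ImP 4, against 63 and 58 in Vehicle 1 and Vehicle 2. It stood at 2.00 ± 0.18 CPM in GABAergic and 1.03 ± 0.46 CPM in glutamatergic neurons. In oligodendrocyte precursors it averaged 3.70 ± 0.97 CPM, on 10 UMIs in 4 libraries. Sstr3, whose protein sits on the primary cilium of neurons, gave 44 and 46 UMIs in neurons of the ImP libraries, against 44 and 36 in the vehicle libraries. Between the GABAergic and glutamatergic classes its levels ran the other way. They were 0.647 ± 0.093 CPM in GABAergic neurons (26 UMIs in 4 libraries) and 1.17 ± 0.07 CPM in glutamatergic neurons (20 UMIs). Neither gene passed the filter on low counts in this comparison. Tested without that filter, neither difference passed, with edgeR adjusted p = 0.262 for Sstr1 and 0.615 for Sstr3.

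Ghr had a different distribution, with astrocytes at the top of the classes with 20 nuclei or more in every library. It averaged 481 ± 72 CPM in astrocytes, 222 ± 28 CPM in GABAergic neurons, 209 ± 25 CPM in glutamatergic neurons, 184 ± 8 CPM in oligodendrocyte precursors, 98.9 ± 72.0 CPM in tanycytes, 36.5 ± 27.4 CPM in microglia and 33.4 ± 10.1 CPM in oligodendrocytes (SD, n = 4). Astrocytes exceeded GABAergic neurons by 1.07 on the log2 scale (SE 0.09, edgeR adjusted p = 9.3e-15), a comparison in which 66.7% of all genes passed. The neighbours in this order that the fit did not separate were GABAergic and glutamatergic neurons (adjusted p = 0.934), glutamatergic neurons and oligodendrocyte precursors (0.229), and microglia and oligodendrocytes (0.668). Classes with fewer than 20 nuclei in some library were not tested. Ghr averaged 838 ± 465 CPM in fibroblasts (46 UMIs), 337 ± 253 CPM in endothelial cells (27 UMIs) and 231 ± 174 CPM in mural cells (28 UMIs). In ependymal cells it averaged 111 ± 44 CPM (10 UMIs), and in pituitary cells 21.1 ± 36.5 CPM (40 UMIs, 3 libraries). Per nucleus, neurons held 0.814 and 1.01 Ghr UMIs in ImP 3 and ImP 4, against 1.07 and 0.956 in Vehicle 1 and Vehicle 2. Oligodendrocytes held 0.0478 and 0.0698, against 0.0414 and 0.0374, below neurons in each library. How much of this RNA was background was not tested. For Ghr, 17 of the 21 pairs of classes passed, against 11 for Sst and 10 for Ghrh, where 7.18% to 73% of all genes passed in a pair.

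**Figure D3:**
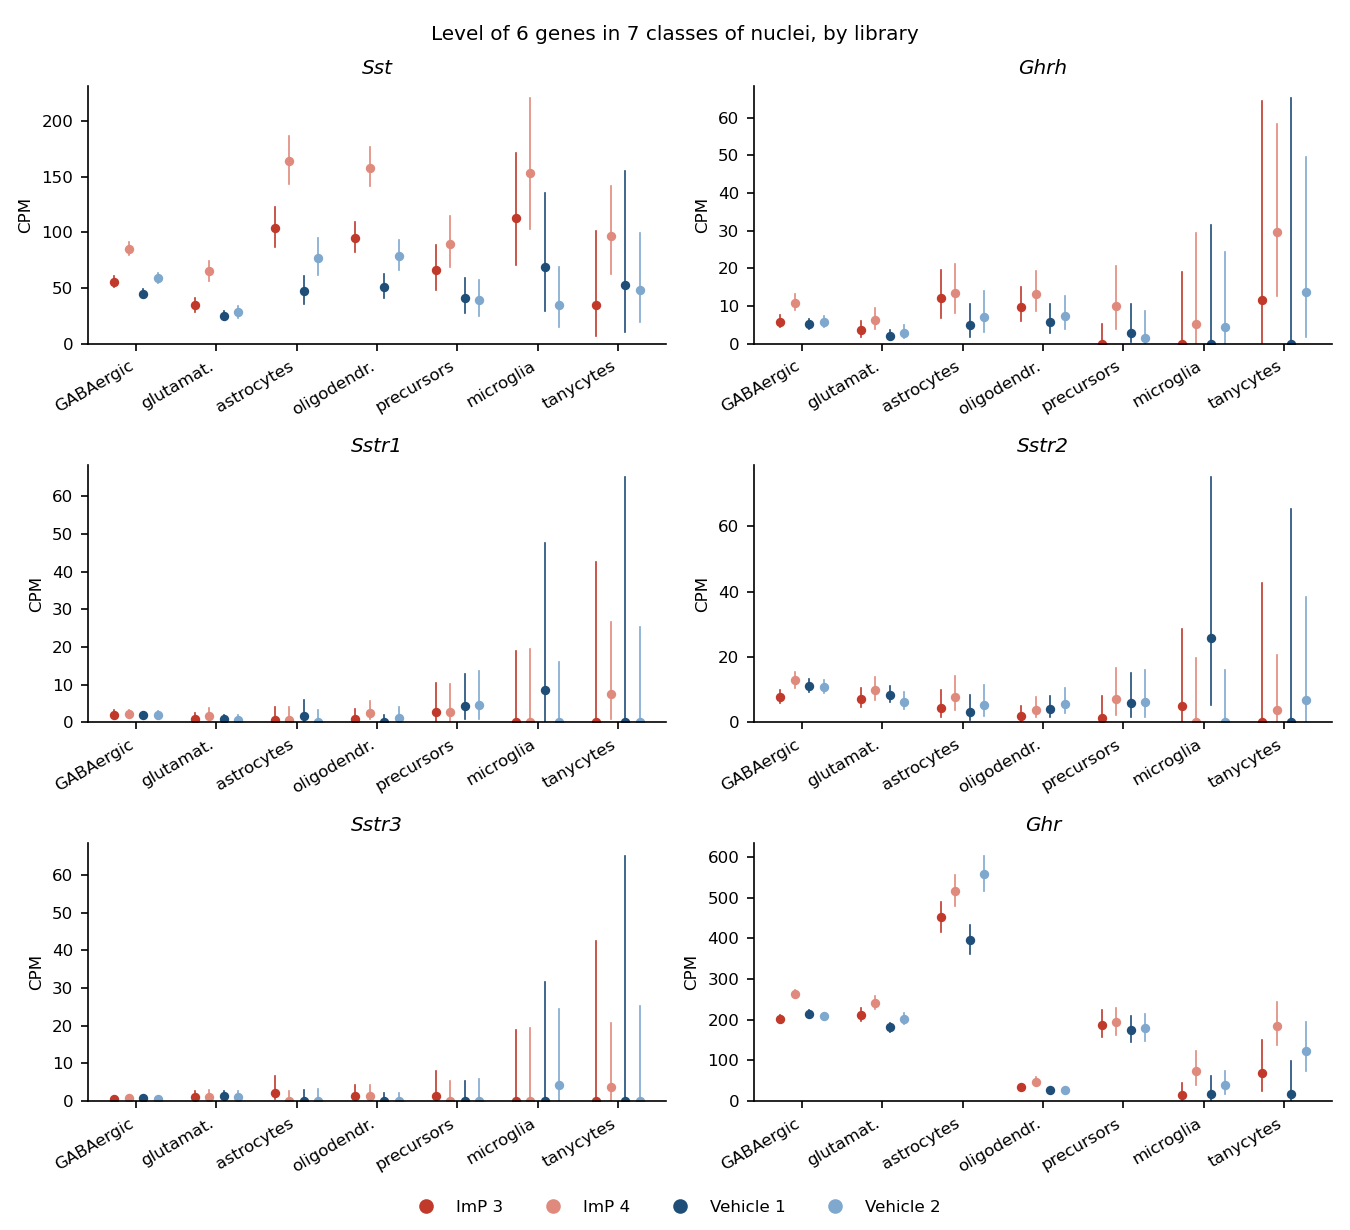
Level of 6 genes (CPM, linear y axes that start at 0) in 7 classes of nuclei (x axes), 1 point per library with its 95% Poisson interval, which covers counting error only; ImP in red, vehicle in blue. Ghr is highest in astrocytes in each library, Sst in astrocytes and oligodendrocytes is at least as high as in neurons, and Sstr1 and Sstr3 have wide intervals in the small classes, microglia and tanycytes.

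Sst producers carried more Ghr than other neurons. Ghr stood at 564 and 854 CPM in the producers of ImP 3 and ImP 4, against 198 and 246 CPM in the other neurons of the same libraries. In Vehicle 1 and Vehicle 2 it stood at 527 and 772 CPM in producers, against 198 and 205 CPM in other neurons. The producers were higher in 4 of 4 libraries (log2 fold 1.64, SE 0.07, edgeR adjusted p = 1.0e-120), in a comparison where 264 genes were higher (1.44%) and 226 lower (1.24%) of 18282 tested, or 2.68%. The log2 fold was between 1.05 and 1.99 in each of the 8 alternative settings. Nuclei with 5 or more Ghr UMIs made up 20.2% and 28.6% of the Sst producers in ImP 3 and ImP 4, and 25.3% and 25.5% in Vehicle 1 and Vehicle 2. Among other neurons they made up 3.64% and 4.88% in the ImP libraries and 5.35% and 4.75% in the vehicle libraries. Producers had somewhat more UMIs in all, with medians of 4273 and 3939 in the ImP libraries, against 3610 and 3587 in their other neurons, and 4958 and 4400 in the vehicle libraries, against 4673 and 3986.

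The receptor gene Sstr2 was also higher in Sst producers, on few molecules. It gave 8 and 11 UMIs in producers of ImP 3 and ImP 4, and 6 and 16 in producers of Vehicle 1 and Vehicle 2. That came to 18.3 and 22.3 CPM in producers, against 9.27 and 11.1 CPM in other neurons, in the ImP libraries. In the vehicle libraries it came to 10.3 and 30.9 CPM in producers, against 10.4 and 11.2 CPM in other neurons, so Vehicle 1 showed no excess. The log2 fold was 0.91 (SE 0.28, edgeR adjusted p = 0.0402). It did not pass without Vehicle 2 (0.65, adjusted p = 0.597), without ImP 3 (0.90, adjusted p = 0.126), without ImP 4 (0.88, adjusted p = 0.191), at 2 or more (0.50, adjusted p = 0.237) and 5 or more (1.04, adjusted p = 0.254) Sst UMIs per producer, and without the filter on low counts (0.89, adjusted p = 0.0758). Sstr1 gave 0 and 1 UMIs in producers of the ImP libraries and 3 and 4 in those of the vehicle libraries (log2 fold 1.20, SE 0.69, adjusted p = 0.609). Ghrh did not differ in a way the fit could detect (log2 fold -0.17, SE 0.48, adjusted p = 0.978).

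The genes with the largest excess in Sst producers included receptor, peptide and transcription factor genes. Pth2r, the receptor of the peptide TIP39, led with 80.3 and 116 CPM in producers of ImP 3 and ImP 4, against 5.13 and 5.90 CPM in other neurons, and 81.0 and 90.7 CPM in producers of Vehicle 1 and Vehicle 2, against 7.47 and 5.09 CPM (log2 fold 3.93, SE 0.19, edgeR adjusted p = 9.5e-93). Npy, which encodes neuropeptide Y, followed the same direction (2.10, SE 0.16, adjusted p = 9.8e-37), as did the transcription factor genes Sox6 (1.80, SE 0.11) and Fosl2 (1.83, SE 0.29). Eya4, a transcriptional coactivator gene, had a log2 fold of 2.50, which came down to 1.51 without ImP 4 (adjusted p = 0.00941). Masp1 (2.41), Tmem26 (2.25) and the unnamed gene Gm45025 (2.16) completed the 8 with the largest folds among called genes at 20 CPM or more and higher in 4 of 4 libraries. These 8 also passed at 2 or more and at 5 or more Sst UMIs, with Pth2r at 3.21 and 4.72 and Npy at 1.33 and 2.78.

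Lists of genes that work with or beside somatostatin or growth hormone, or in peptide processing in general, were read in the same comparison. Among peptides and enzymes known beside somatostatin or GHRH, 6 of 23 tested were higher and 3 lower, with a median log2 fold of -0.04 against -0.06 over all genes. The 4 with the smallest p were Npy, Meis2 (1.35, SE 0.11), Otp (1.78, SE 0.26) and Calb2 (1.04, SE 0.15), of which Otp is a homeobox gene needed for the development of hypothalamic somatostatin neurons. Of 7 general peptide processing genes 2 were higher, the amidating enzyme gene Pam (0.36, SE 0.07, adjusted p = 9.7e-06) and the prohormone convertase gene Pcsk1 (0.46, SE 0.13, adjusted p = 0.0167). Whether either acts on somatostatin in these nuclei was not tested. Of 13 genes of somatostatin receptor transduction 2 were higher and 1 lower. The potassium channel gene Kcnj3 was lower (log2 fold -0.48, SE 0.08, adjusted p = 1.8e-07), and Kcnj5 (1.52, SE 0.38, adjusted p = 0.00426) and the inhibitory G protein gene Gnai1 (0.35, SE 0.10, adjusted p = 0.0205) were higher. Of the other growth hormone axis genes 1 of 8 was higher, the orphan receptor gene Gpr101 (1.21, SE 0.20, adjusted p = 3.6e-07). None of the 14 genes of growth hormone receptor signalling passed with edgeR, 3 being higher at an unadjusted p under 0.05, with Stat5b nearest (0.28, SE 0.09, adjusted p = 0.10) and Stat5a next (1.62, SE 0.59, adjusted p = 0.152). Single libraries or settings decided some of these calls. At 2 or more Sst UMIs Kcnj5 (0.59, adjusted p = 0.532) and Pcsk1 (0.28, adjusted p = 0.0599) were lost, and Gnai1 was lost without the filter on low counts (0.33, adjusted p = 0.0523), while Meis2 came down to 0.75 at 5 or more Sst UMIs (adjusted p = 0.00389). Pcsk1 was lost without ImP 3 (adjusted p = 0.121) and without ImP 4 (0.648), Gnai1 without Vehicle 1 (0.671) and without Vehicle 2 (0.142), and Kcnj5 without ImP 3 (0.488), while Stat5b passed without Vehicle 1 (0.0379).

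Ghrh producers were few and shared the high Ghr. The gene stood at 432 and 2598 CPM in the 5 and 17 producers of ImP 3 and ImP 4, against 202 and 249 CPM in other neurons, and at 989 and 1502 CPM in the 12 and 9 producers of Vehicle 1 and Vehicle 2, against 201 and 210 CPM. Ghr was higher in producers in 4 of 4 libraries (log2 fold 2.21, SE 0.23, edgeR adjusted p = 4.6e-18), between 1.80 and 2.58 in the 8 alternative settings. In this comparison 69 genes were higher (0.387%) and 219 lower (1.23%) of 17807 tested, or 1.62%, and the median gene had a log2 fold of -0.51. With so few nuclei many genes had no UMI in the producers. Producers with 5 or more Ghr UMIs numbered 1 of 5 and 11 of 17 in the ImP libraries and 7 of 12 and 6 of 9 in the vehicle libraries. Sst stood at -0.76 (SE 0.52, adjusted p = 0.774) and Sstr2 at 0.75 (SE 0.85, adjusted p = 0.820), with 4 Sstr2 UMIs in the producers of ImP 4, 1 in those of Vehicle 2 and 0 in the others.

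Of 23 tested genes known beside somatostatin or GHRH, 4 were higher in Ghrh producers and 0 lower, with a median log2 fold of -0.39 over the list and -0.51 over all genes. They were Cartpt, which encodes the CART peptide (1.98, SE 0.30, edgeR adjusted p = 3.7e-08), Trh, the thyrotropin-releasing hormone gene (2.12, SE 0.33, adjusted p = 6.3e-08), Th, the gene of the rate-limiting enzyme of dopamine synthesis (3.81, SE 0.64, adjusted p = 8.0e-07), and the galanin gene Gal (1.12, SE 0.31, adjusted p = 0.0246). Cartpt and Trh were higher in 4 of 4 libraries, and Th and Gal in 3 of 4. Pcsk2, a prohormone convertase gene, was the only one of 7 processing genes to pass and was lower (-1.34, SE 0.27, adjusted p = 1.4e-04). None of the 8 other growth hormone axis genes, of 14 signalling genes or of 13 transduction genes passed with edgeR. At an unadjusted p under 0.05, 0 axis genes, 3 signalling genes higher and 1 lower, and 1 transduction gene higher stood out. Among the called genes at 20 CPM or more and higher in 4 of 4 libraries, the 8 with the largest folds were Colec12 (3.0), Asb4 (2.74), Mbnl3 (2.74), the insulin-signalling transcription factor gene Foxo1 (2.57), Sox5os2 (2.37), Ghr, C79798 (2.15) and Trh. In producers with 5 or more Ghrh UMIs Trh was at -0.46, the other direction, and 7 more of these calls were lost: Cartpt (1.02, adjusted p = 0.613), Th (3.28, adjusted p = 0.175), Gal (1.11, adjusted p = 0.423), Mbnl3 (2.18, adjusted p = 0.603), Foxo1 (1.79, adjusted p = 0.474), Sox5os2 (2.81, adjusted p = 0.0801) and C79798 (1.69, adjusted p = 0.442). Pcsk2 was lost at 2 or more Ghrh UMIs (-0.49, adjusted p = 0.127), and Gal without the filter on low counts (adjusted p = 0.0752). Th was lost without ImP 4 (2.21, adjusted p = 0.894), and Cartpt came down to 1.35 without Vehicle 2 (adjusted p = 0.0471). Gal was lost without Vehicle 1 (adjusted p = 0.310), Vehicle 2 (0.900) or ImP 4 (0.0647), Colec12 without Vehicle 2 (0.150) and C79798 without Vehicle 1 (0.0818). Mbnl3 was lost without Vehicle 2 (0.390), ImP 3 (0.112) or ImP 4 (0.155), and Sox5os2 without Vehicle 1 (0.153), Vehicle 2 (0.159) or ImP 4 (0.422).

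**Figure D4:**
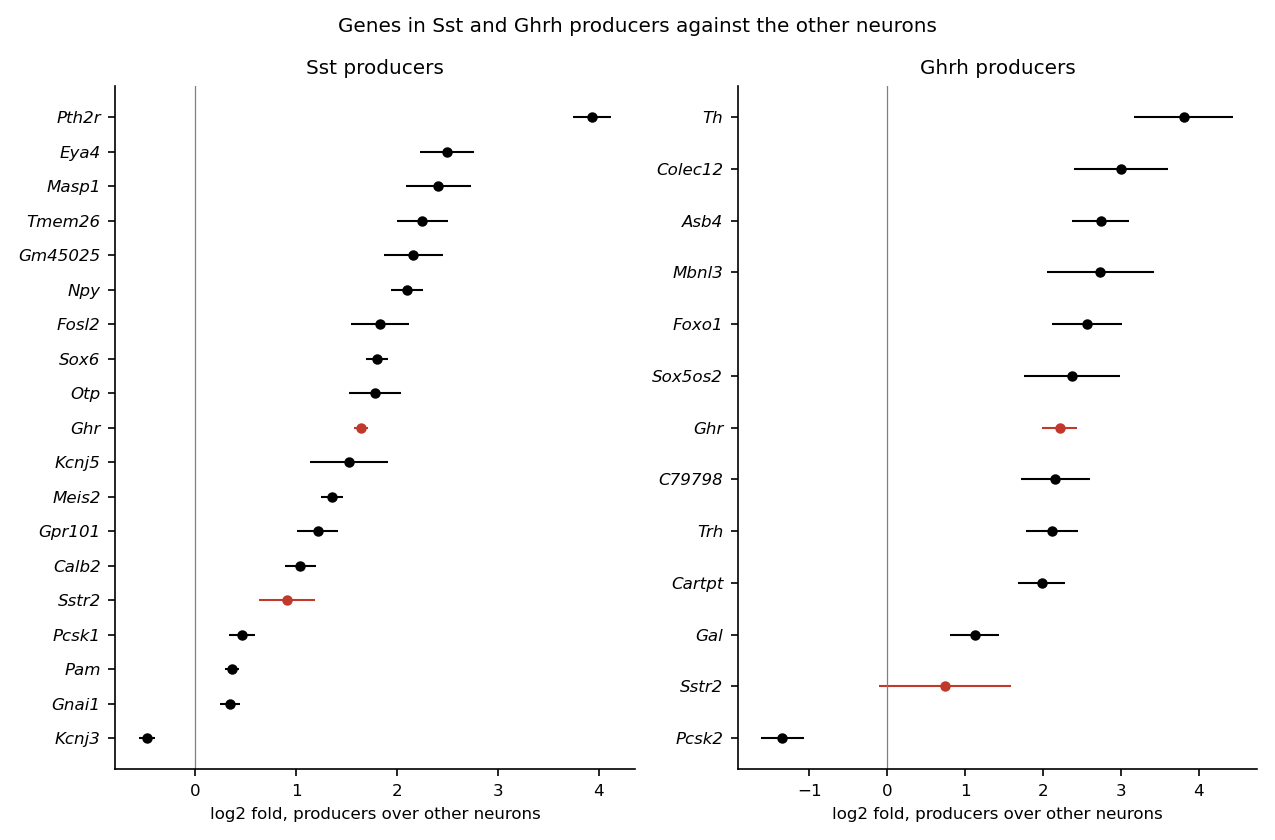
Log2 fold of producers over the other neurons (x axis) with its standard error, for the genes named in the text that passed the threshold and for Ghr and Sstr2, in red; Sst producers left, Ghrh producers right. Ghr lies at 1.64 and 2.21, Sstr2 at 0.91 and 0.75, and the Sstr2 value in Ghrh producers did not pass.

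Neurons with 5 or more Ghr UMIs, called Ghr-rich here, were compared with the other neurons to see which genes accompany the receptor. This comparison was added after the data had been seen. Ghr-rich neurons numbered 383 in ImP 3 and 527 in ImP 4, against 434 in Vehicle 1 and 453 in Vehicle 2. Both peptide genes were higher in them. Sst stood at 70.1 and 177 CPM in Ghr-rich neurons of ImP 3 and ImP 4, against 49.0 and 68.4 CPM in the other neurons, and at 78.6 and 92.1 CPM in those of Vehicle 1 and Vehicle 2, against 34.6 and 44.8 CPM (log2 fold 1.15, SE 0.08, edgeR adjusted p = 5.4e-11). Ghrh stood at 11.6 and 28.4 CPM, against 4.84 and 8.23 CPM, in the ImP libraries, and at 16.1 and 15.9 CPM, against 3.11 and 4.03 CPM, in the vehicle libraries (log2 fold 1.94, SE 0.16, adjusted p = 7.0e-10). The receptor genes Sstr1 (0.71, SE 0.32, adjusted p = 0.140), Sstr2 (-0.03, SE 0.15, adjusted p = 0.933) and Sstr3 (0.62, SE 0.40, adjusted p = 0.336) did not pass. The contrast called 3194 of 18541 genes, or 17.2% (9.82% higher and 7.41% lower), and Ghr-rich neurons were deeper than the rest, since a fixed number of UMIs favours deep nuclei. With Ghr at 3 or more UMIs and 0.1% of UMIs or more as the rule instead, the log2 fold of Sst was 1.65 and that of Ghrh 2.56.

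Most genes of a growth hormone receptor signalling list were higher in Ghr-rich neurons, and whether they act for this receptor there was not tested. Of the 14 genes of that list 9 were higher and 0 lower, with a median log2 fold of 0.42, against -0.01 over all genes. Stat3 (0.69, SE 0.07, edgeR adjusted p = 2.8e-08), Stat5b (0.38, SE 0.04, adjusted p = 2.9e-07), the feedback inhibitor gene Socs2 (0.90, SE 0.11, adjusted p = 6.3e-07) and Irs2 (0.45, SE 0.09, adjusted p = 8.6e-04) had the smallest p. With the 0.1% rule 8 were higher and 1 lower, and all 8 were among the 9. Without Vehicle 1, without Vehicle 2 or without ImP 4, 6 of the 9 remained, and without ImP 3 all 9 did. Jak2, the kinase gene of the pathway, was among the 9. It was not among the higher genes under the 0.1% rule, without Vehicle 1 or without Vehicle 2. Of the other growth hormone axis genes 3 were higher and 1 lower: Gpr101 (0.68, SE 0.10, adjusted p = 7.6e-06), the ghrelin receptor gene Ghsr (1.69, SE 0.41, adjusted p = 0.00373), Igf1 (0.54, SE 0.18, adjusted p = 0.0375) and, lower, Gh (-0.50, SE 0.10, adjusted p = 3.7e-04). Igf1 was -0.87 under the 0.1% rule, the opposite direction (adjusted p = 0.00772), and was lost without Vehicle 1 (adjusted p = 0.827) or Vehicle 2 (0.10). Ghsr was lost without ImP 4 (0.200), and Gh stood at -1.16 without ImP 4 and was lost under the 0.1% rule (0.394).

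By the same rule, the genes with the largest folds in Ghr-rich neurons were Corin (2.78), Acvr1c (2.19), Npy (2.11), Filip1 (1.86), the leptin receptor gene Lepr (1.79), Csgalnact1 (1.56), Otp (1.49) and Pdlim5 (1.40). Npy and Otp were also among the genes higher in Sst producers. Among 7 processing genes 3 were higher and 2 lower, with Pcsk1 (0.81, SE 0.06) and Pam (0.36, SE 0.04) higher and Scg5 (-0.34, SE 0.04) and Pcsk1n (-0.32, SE 0.04) lower. Among 13 transduction genes 6 were higher and 1 lower, led by Kcnj3 (0.28), Gnai1 (0.36), Kcnj6 (0.29) and Kcnj5 (0.88). Of these, Kcnj3, Kcnj6, Kcnj5 and Pcsk1n did not pass under the 0.1% rule (adjusted p = 0.782, 0.264, 0.0690 and 0.703), and Kcnj5 was also lost without Vehicle 2 (0.0539). Among 24 genes known beside the peptides 8 were higher and 4 lower, with Trh (0.64, SE 0.07) and Cartpt (0.78, SE 0.10) higher besides Npy and Otp.

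No gene of the axis passed the test between ImP and vehicle in neurons when the libraries were compared without a block. In neurons 1 of 20476 genes passed, or 0.00488%, the matrix protein gene Mgp, named after its value was seen, where 1207 higher and 241 lower genes had an unadjusted p under 0.05, and 256 genes passed with DESeq2. Sst, at the levels given above, had a log2 fold of 0.56 (SE 0.21, edgeR adjusted p = 0.640, unadjusted p = 0.0340). Ghrh had 0.73 (SE 0.29, adjusted p = 0.687, unadjusted p = 0.0443), and neither passed with DESeq2 (adjusted p = 1.00 for Sst and 0.291 for Ghrh). Ghr stood at 202 and 253 CPM in neurons of ImP 3 and ImP 4, against 202 and 212 CPM in Vehicle 1 and Vehicle 2 (0.15, SE 0.11, adjusted p = 0.853). Sstr1 (0.45, SE 0.23, adjusted p = 0.787), Sstr2 (-0.07, SE 0.13, adjusted p = 0.948) and Sstr3 (0.20, SE 0.25, adjusted p = 0.917) did not pass. Over all nuclei, where 0.0047% of genes passed, Sst had 0.68 (SE 0.23, adjusted p = 0.485) and Ghrh 0.79 (SE 0.27, adjusted p = 0.489).

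The result for the peptides turned on single libraries. Pituitary markers in neurons summed to 0.405 and 17.7 UMIs per 10000 in ImP 3 and ImP 4, with 7 and 8 of 8 detected, against 0.344 and 0.165 in Vehicle 1 and Vehicle 2, also with 7 and 8 detected, and their part in these values was not tested. Without ImP 3, Sst (0.84, edgeR adjusted p = 0.00572) and Ghrh (1.12, adjusted p = 0.00750) passed in neurons, and without ImP 4, Sst was at 0.22 (adjusted p = 0.965) and Ghrh at 0.21. Library names begin with 111 for ImP 3 and Vehicle 1 and with 113 for ImP 4 and Vehicle 2, and nothing states what the number stands for. Within the pairs the log2 ratio of ImP over vehicle in neurons was 0.39 and 0.65 for Sst and 0.32 and 0.98 for Ghrh. With that number as a block, Sst passed in neurons (0.54, adjusted p = 0.00912) along with 2.73% of all genes, and Sst (0.66, adjusted p = 0.00540) and Ghrh (0.75, adjusted p = 0.0435) passed over all nuclei along with 3.71%. That fit keeps 1 residual degree of freedom.

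Sst had a log2 fold above 0 between ImP and vehicle in every class with a test, glial classes included. In astrocytes Sst stood at 104 and 164 CPM in ImP 3 and ImP 4, against 47.3 and 76.7 CPM in Vehicle 1 and Vehicle 2, and passed (1.13, SE 0.24, edgeR adjusted p = 0.0468). It was 1 of 33 genes called of 11475, or 0.288%, all higher, and Gh, Prl, Hcrt, Pomc, Pmch, Oxt, Trh and Cartpt, which encode pituitary hormones or neuropeptides, were others of them. The call was lost with DESeq2 (adjusted p = 0.0941), without nuclei under 1000 genes (0.0718), without Vehicle 1 (0.78, adjusted p = 0.406) and without ImP 4 (0.74, adjusted p = 0.598). Pituitary markers in astrocytes summed to 0.642 and 43.9 UMIs per 10000 in ImP 3 and ImP 4, with 6 and 8 of 8 detected, against 0.522 and 0.106 in Vehicle 1 and Vehicle 2, with 5 detected in each. Markers of neurons in astrocytes summed to 18.0 and 20.6 UMIs per 10000 in the ImP libraries, against 13.5 and 17.3 in the vehicle libraries, with 8 of 8 detected. Their part in the Sst difference was not tested.

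In the remaining classes Sst did not pass without a block. It had a log2 fold of 0.46 (SE 0.19, edgeR adjusted p = 0.591) in GABAergic neurons, where 0.0119% of genes passed, and 0.91 (SE 0.23, adjusted p = 0.243) in glutamatergic neurons, where 0.00695% passed. In oligodendrocytes it had 0.93 (SE 0.25, adjusted p = 0.236; 0% passed with edgeR, 9 genes with DESeq2, with 983 higher and 435 lower at an unadjusted p under 0.05), in oligodendrocyte precursors 0.97 (SE 0.25, adjusted p = 0.149; 0.0335% passed) and in microglia 1.46 (SE 0.41, adjusted p = 0.393; 0% passed with edgeR and 0 genes with DESeq2, with 282 higher and 175 lower at an unadjusted p under 0.05). In tanycytes only Ghr could be tested (0.75, SE 0.61, adjusted p = 0.995). The difference of the Sst effect between GABAergic and glutamatergic neurons was -0.42 (SE 0.14, unadjusted p = 0.00828, adjusted p = 1.00), in a test that 0.00602% of genes passed. Ghr had 0.16 in GABAergic neurons, 0.26 in glutamatergic neurons, 0.11 in oligodendrocyte precursors and 0.60 in oligodendrocytes (SE 0.23, adjusted p = 0.348). Ghrh had 0.63 in GABAergic neurons, 1.00 in glutamatergic neurons and 0.77 in oligodendrocytes, none past the threshold. With the library-name number as a block, Sst passed in GABAergic neurons (0.45, adjusted p = 1.1e-05) along with 3.92% of all genes, in glutamatergic neurons (0.87, adjusted p = 1.8e-05) along with 1.9%, in oligodendrocytes (0.93, adjusted p = 2.0e-07) along with 7.48% and in precursors (0.96, adjusted p = 0.0370) along with 1.61%. Within the 111 and 113 pairs the log2 ratio of Sst was 0.32 and 0.54 in GABAergic neurons, 0.47 and 1.20 in glutamatergic neurons, 0.90 and 1.00 in oligodendrocytes, 0.69 and 1.21 in precursors and 0.72 and 2.14 in microglia. Without the filter on low counts Sst passed in glutamatergic neurons (0.90, adjusted p = 1.1e-05). Leaving out 1 library brought calls in GABAergic neurons for Sst (without Vehicle 2, 0.70, adjusted p = 0.0367; without ImP 3, 0.75, adjusted p = 5.0e-07), Ghrh (without ImP 3, 1.00, adjusted p = 0.00619) and Ghr (without ImP 3, 0.34, adjusted p = 0.0159). It did so for Sst in glutamatergic neurons (without Vehicle 2, 1.00, adjusted p = 0.0103; without ImP 3, 1.30, adjusted p = 9.7e-11), oligodendrocytes (without Vehicle 2, 1.27, adjusted p = 7.2e-05) and microglia (without Vehicle 1, 1.88, adjusted p = 0.00806).

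Inside the Sst producers the groups were not told apart, in a comparison also added after the data had been seen. Sst stood at 1112 and 1511 CPM in producers of ImP 3 and ImP 4, against 1127 and 1296 CPM in those of Vehicle 1 and Vehicle 2 (log2 fold 0.13, SE 0.15, edgeR adjusted p = 0.942), and the groups overlapped. A threshold of 3 UMIs on Sst itself chose these nuclei, which limits how far their level can move. Ghr in producers had 0.14 (SE 0.20, adjusted p = 0.953). No gene passed in producers with edgeR, 0% of 7961, where 289 higher and 188 lower genes had an unadjusted p under 0.05. In Ghr-rich neurons 0% of 13591 genes passed with edgeR, where 520 higher and 270 lower genes had an unadjusted p under 0.05, and Ghr had 0.32 (SE 0.12, adjusted p = 0.698). Without ImP 3, Ghr (0.49, adjusted p = 2.2e-04), Sst (1.05, adjusted p = 1.2e-11) and Ghrh (0.82, adjusted p = 0.0328) passed there, as did Sst without Vehicle 2 (0.67, adjusted p = 0.0367). Without ImP 4 Sst turned to -0.27 and Ghrh to -0.45.

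**Figure D5:**
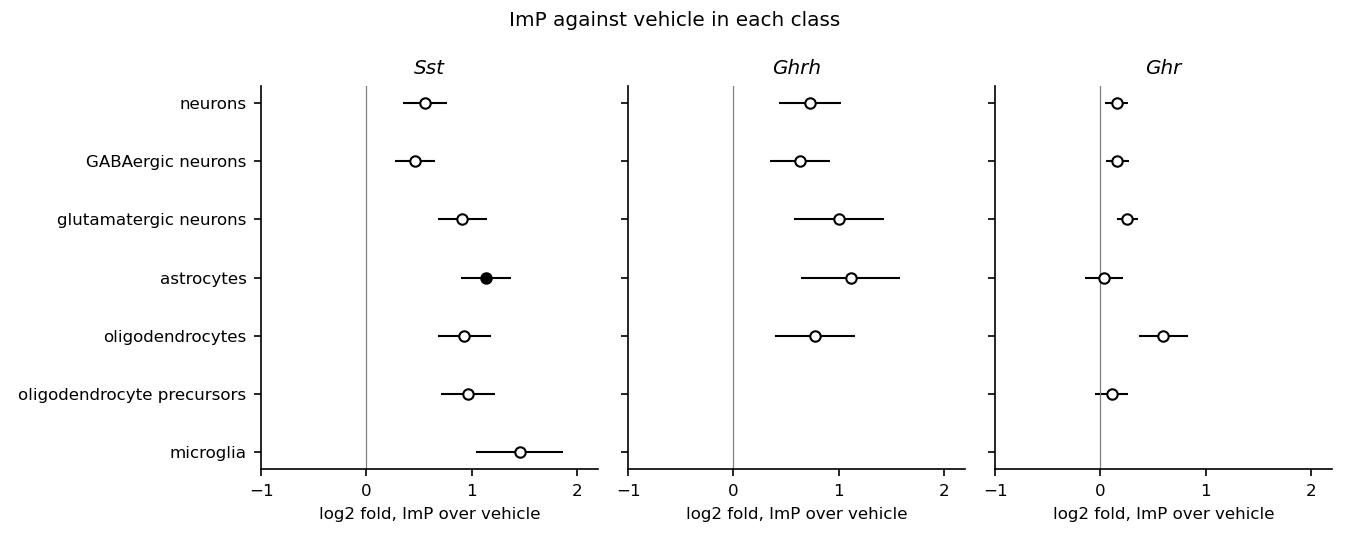
Log2 fold of ImP over vehicle (x axis) with its standard error for Sst, Ghrh and Ghr in 7 sets of nuclei (rows); a filled point passed the threshold, an open one did not, and a missing one had too few counts. Sst lies above 0 in each row, from 0.46 in GABAergic neurons to 1.46 in microglia, and passed only in astrocytes, at 1.13.

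The other genes of the axis gave no call between ImP and vehicle in neurons. Of the 9 other growth hormone axis genes tested, of 14 signalling genes, 13 transduction genes, 7 processing genes and 25 genes known beside the peptides, 0 passed in neurons with edgeR. The medians of the log2 folds were 0.12, -0.01, 0.02, 0.10 and 0.29, against -0.01 over all genes. At an unadjusted p under 0.05, 1 axis gene, 1 signalling gene, 3 processing genes and 7 of the genes known beside the peptides were higher, and 2 transduction genes were lower. In astrocytes 3 of 17 genes known beside the peptides passed, all higher, namely Tac1, Trh and Cartpt, with a median of 0.78 over that list, and Gh passed among 3 other axis genes.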

How the data were processed

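The authors deposited whole-number UMI counts per gene and barcode for each of the 4 libraries, and Cell Ranger 8.0.1, Seurat 5.0.0 and build GRCm39 are named in the submitters' processing notes. The treatment of intronic reads is not given in the sources used here. Nuclei were kept with 500 or more genes and at most 5% mitochondrial UMIs. Classes were gated by marker genes. Neurons needed 3 markers and at least 0.5 times the mean rate of marker UMIs, and other classes needed 4 times. Nuclei that met several gates, 353 to 745 per library, were left out as possible doublets; no doublet caller was run. For each library, the counts of a class were added up and tested with edgeR 4.0.16 (TMM factors, filterByExpr with a minimum count of 10, quasi-likelihood test, Benjamini-Hochberg over all genes, threshold 0.05), with DESeq2 1.42.0 as an alternative. The code was tested on simulated counts. Shares were compared with exact permutation tests. Members, lists and rules were chosen with earlier results of these data known. Named are the genes of the axis in every class, the 8 largest folds in producers among called genes with 20 CPM or more and higher in 4 of 4 libraries, and at most 4 called genes per list, or the 2 with the smallest p.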

Additional observations from a re-analysis of the deposited data

How the results depend on the processing

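No paired analysis was possible because the ImP and vehicle libraries share no replicate numbers, except by the number that opens the library names, which was fitted as a block although nothing states what it stands for. The higher Ghr of Sst and Ghrh producers, and the higher Sst and Ghrh of Ghr-rich neurons, kept direction and call in each alternative run. The members called between ImP and vehicle, 0 of those tested over all nuclei, 0 in neuron classes and 1 in other classes, became 2, 3 and 3 with the library-name number as a block, 1 in neuron classes without the count filter, and 0 in other classes with DESeq2 or at 1000 genes or more. Leaving out 1 library gave 0 to 6 in neuron classes and 0 to 2 in other classes. The 43 calls between classes, over Sst, Sstr2, Ghrh and Ghr in 21 pairs each, became 24 at 1000 genes or more. In the main fit 7.18% to 73% of all genes passed in a pair.

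With the block, the counts of genes called between ImP and vehicle were 790 over all nuclei, 560 in neurons, 661 in GABAergic and 273 in glutamatergic neurons, 478 in astrocytes, 899 in oligodendrocytes, 144 in oligodendrocyte precursors, 43 in microglia and 2 in tanycytes. With DESeq2 they were 375 over all nuclei, 256 in neurons, 83 in GABAergic neurons, 4 in glutamatergic neurons, 6 in astrocytes, 9 in oligodendrocytes and 6 in precursors. Without the count filter they were 0 over all nuclei, 0 in neurons, 170 in glutamatergic neurons, 126 in astrocytes, 0 in precursors, 79 in microglia and 30 in tanycytes. Without TMM factors they were 6 in GABAergic neurons and 29 in precursors. At 1000 genes or more they were 2 in astrocytes, 55 in oligodendrocytes and 64 in precursors. Without the deepest 10% of nuclei they were 7 in GABAergic and 22 in glutamatergic neurons, 52 in astrocytes and 38 in precursors. Leaving out 1 library gave 0 to 157 over all nuclei, 0 to 495 in neurons, 8 to 626 in GABAergic and 8 to 282 in glutamatergic neurons, 1 to 279 in astrocytes, 0 to 422 in oligodendrocytes, 0 to 12 in precursors, 0 to 185 in microglia and 15 to 37 in tanycytes. It gave 2 to 48 for the difference between neuron classes, 4 to 32 in Sst producers and 18 to 358 in Ghr-rich neurons. Between producers and other neurons it gave 361 to 414 genes for Sst, 153 to 240 for Ghrh and 2158 to 2771 for Ghr-rich neurons, where the 0.1% rule gave 1728. The causes were not tested.

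The difference in the share of producers turned to 0.386 points for Sst and 0.0105 points for Ghrh at 2 UMIs or more, and leaving out 1 library gave -0.242 to 0.00688 for Sst and -0.0773 to 0.0390 for Ghrh. Without 1 library, log2 folds between ImP and vehicle changed sign for Sstr2 over all nuclei (-0.22 to 0.079), in neurons (-0.21 to 0.073), GABAergic neurons (-0.49 to 0.26), glutamatergic neurons (-0.069 to 0.43) and Sst producers (-0.60 to 0.98). They did so for Ghr over all nuclei (-0.019 to 0.28), in neurons (-0.024 to 0.32), GABAergic neurons (-0.049 to 0.34), astrocytes (-0.23 to 0.31), tanycytes (-0.30 to 3.07) and Sst producers (-0.19 to 0.45), for Sst in Sst producers (-0.11 to 0.32) and Ghr-rich neurons (-0.27 to 1.05), for Ghrh in Ghr-rich neurons (-0.45 to 0.82), and for the class difference of Sstr1 (-0.80 to 0.085). Ghr in glutamatergic neurons was -0.028 without the deepest 10% of nuclei, and GABAergic over glutamatergic Ghr ran from -0.016 to 0.084. In Sst producers, leaving out 1 library gave -7.41 to 0.33 for Sstr3 and -0.90 to 0.034 for Ghrh, and Sstr3 was 0.15 at 2 UMIs and 0.022 at 5, where Gh was 0.28 at 2 UMIs. In Ghrh producers the same gave -7.98 to 1.5 for Sstr1, -0.98 to 1.30 for Sstr2 and -0.45 to 0.53 for Gh. At 5 Ghrh UMIs or more, Sstr1 was -8.15, Sstr2 -0.24, Trh -0.46 and Gnai3 0.14, and at 2 Sstr1 was -0.0056. Fitted values below -7 come from producers with 0 UMIs and give no size. In Ghr-rich neurons Sstr2 ran from -0.13 to 0.065 without 1 library and was 0.26 under the 0.1% rule, where Sstr3 was -0.64 and Igf1 -0.87. Depth limits Cort, Sstr4, Sstr1 and Sstr3, with 5 to 113 UMIs per library, and the Ghrh producers, with 5 to 17 nuclei.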
